A study of Homo sapiens with 6 samples.

Results

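Zinc transporters of the SLC39 and SLC30 families were followed in RBE cells, a human cell line established from intrahepatic cholangiocarcinoma, which arises from bile duct epithelium inside the liver. The 10 genes described were named by symbol: 6 SLC39 genes (SLC39A1, SLC39A4, SLC39A6, SLC39A7, SLC39A10 and SLC39A14) and 4 SLC30 genes (SLC30A1, SLC30A5, SLC30A7 and SLC30A9), out of 63186 rows of the deposited count table and 24 genes of the 2 families. They were picked with their values in this same comparison known. Their differences are therefore a description, given with fold and standard error (SE) and without p-values. All 6 cultures were RBE cells grown in the same medium and transfected at about 60% confluency. In 3 (si-Ctrl) the siRNA was a control and in 3 (si-CHAF1A) it targeted CHAF1A, the large subunit of the histone-depositing complex CAF-1. The medium was renewed after 24 h and cells were taken at 48 h. The series deals with NAT10, chromatin and transposable elements in this cancer, and the comparison sets RNA levels after loss of CHAF1A against those of control cells. The labels do not say whether 1 siRNA or several were used, so an effect of CHAF1A loss and an effect of an siRNA's own sequence cannot be told apart, and RBE is a single line.

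SLC39 proteins (also called ZIP) carry zinc into the cytosol, from outside the cell or from organelles. SLC30 proteins (also called ZnT) carry it out of the cytosol, across the cell surface or into organelles. Free zinc in the cytosol is kept very low by these carriers and by metallothioneins, small cysteine-rich proteins that bind it. The transcription factor MTF1 senses zinc, binds metal response elements in DNA and switches on the metallothioneins and SLC30A1. In the liver SLC39A14 takes up zinc, iron and manganese, and its relative SLC39A8 accepts the same metals.

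The 6 libraries held 15643381 to 20918997 counts. CHAF1A stood at 51.0 to 59.8 CPM (counts per 1000000 counts of a library, scaled with TMM factors) in si-Ctrl and at 11.1 to 12.9 CPM in si-CHAF1A libraries, 4.61-fold lower (edgeR adjusted p = 2.57e-10), which matches the labels. The library si-Ctrl 2 stood apart from the other controls on the second principal component (-29.6 against 14.9 and 13.9), so the log2 fold changes of the zinc transporters are also given without it. The bile duct keratins KRT7, KRT8, KRT18 and KRT19 with EPCAM and SOX9 summed to 4111 to 4779 CPM in si-Ctrl and 5319 to 5839 CPM in si-CHAF1A. By edgeR's adjusted p 4 of these 6 were higher and 1 lower, beside 18.5% higher and 19.3% lower among all tested genes. Hepatocyte markers summed to 16.4 to 25.7 and 30.3 to 53.0 CPM, nearly all of it SERPINA1, while ALB was at no more than 0.573 CPM. Fibroblast markers summed to 8.66 to 11.5 and 16.0 to 35.7 CPM, endothelial markers to 2.41 to 3.71 and 6.32 to 8.86 CPM, and blood markers to under 1 CPM in each library. The highest fibroblast sum was that of si-CHAF1A 1, where COL1A2 had 92 counts against 3 and 1 in si-CHAF1A 2 and 3. Of the other markers SERPINA1 (the 1 hepatocyte marker tested) and PDGFRB (of 2 fibroblast markers tested) were higher by edgeR's adjusted p. So was VWF (of 2 endothelial markers tested), with 9, 19 and 6 counts in si-Ctrl and 85, 46 and 64 in si-CHAF1A. VWF passed the filter on low counts only through the si-CHAF1A libraries, so nothing is read from its call. The folds of SERPINA1, PDGFRB and VWF were 1.92, 4.11 and 5.83, and 0 were lower. No marker was at 0 in all libraries. The part of these markers in the zinc transporter values was not tested. In RNA from whole cultures, fewer cells of a type and less RNA per cell cannot be told apart.

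Of the 10 zinc transporters, SLC39A14 and SLC30A7 fell most after CHAF1A knockdown, by 1.75-fold and 1.78-fold. SLC39A10 fell slightly, and SLC30A1 and SLC39A6 rose by 1.46-fold and 1.29-fold. SLC39A4, SLC39A1, SLC30A5 and SLC30A9 were not past the threshold, and SLC39A7 had too few counts to be tested. In counts, 9 of the 10 genes passed the filter on low counts, and 2 of these were higher and 3 lower at an adjusted p under 0.05 by edgeR's quasi-likelihood test. Among all 15911 tested genes 37.8% were past that threshold, 18.5% higher and 19.3% lower. In 5 of the 9 genes no library of one group lay within the range of the other, which held for 48.2% of all tested genes. Because the genes were chosen on this contrast, nothing is read from these shares. In what follows "rose" and "fell" are used only of genes past the threshold.

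**Figure D1:**
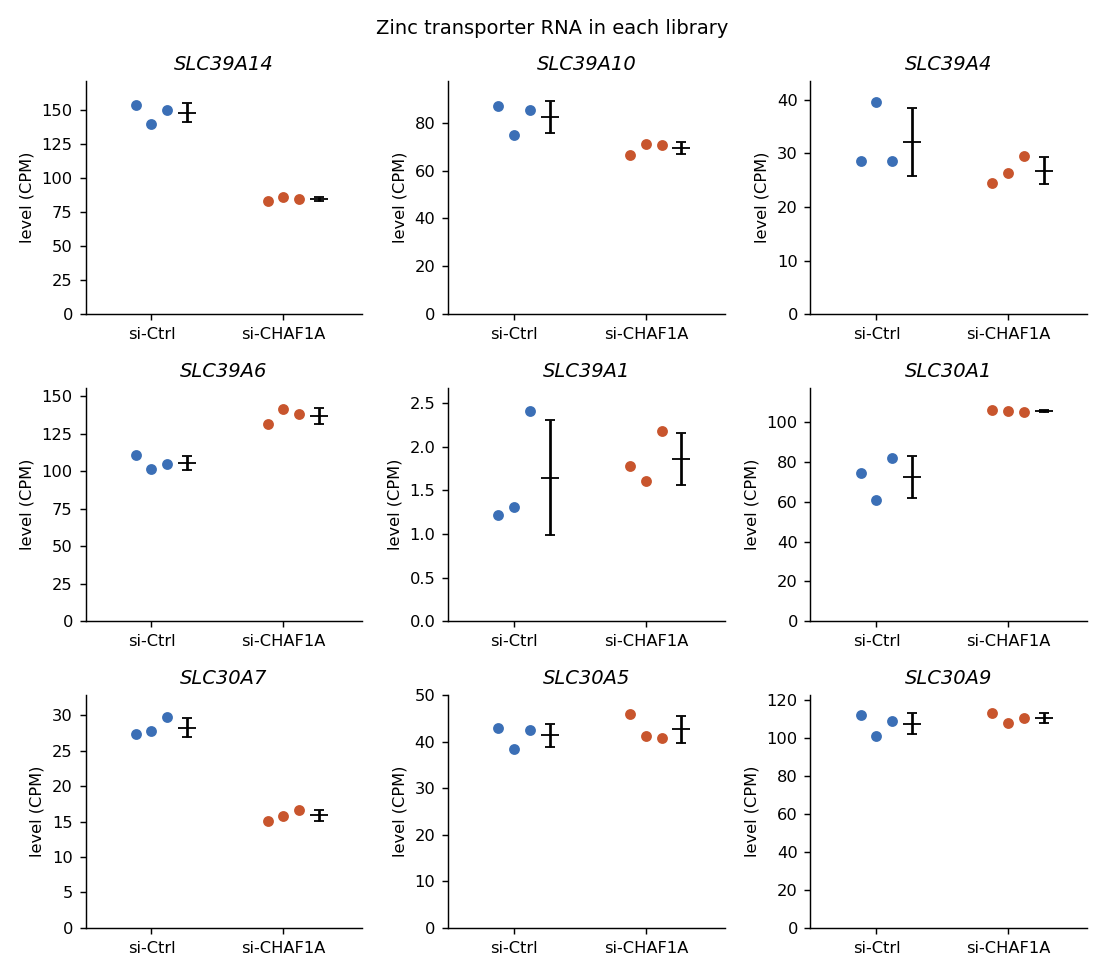
Level in CPM (y axis, from 0) of 9 zinc transporters in each library, with si-Ctrl in blue and si-CHAF1A in orange, replicates 1 to 3 from left to right. Black bars give the mean and SD of 3 libraries. The groups lie apart for SLC39A14, SLC39A10, SLC39A6, SLC30A1 and SLC30A7 and overlap for the other 4 genes.

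Among the SLC39 genes, SLC39A14 (ENSG00000104635, chromosome 8, 22367249 to 22434129, plus strand) encodes a surface importer of zinc, manganese and iron not bound to transferrin. It stood at 153, 139.8 and 149.9 CPM in si-Ctrl 1, 2 and 3 and at 83.2, 85.9 and 84.4 CPM in si-CHAF1A 1, 2 and 3. Every knockdown library lay far under every control library, and the 3 knockdown values were close together. The gene fell 1.75-fold, from 148 ± 7.05 to 84.5 ± 1.35 CPM (± SD over 3 libraries in each group), a log2 fold change of -0.81 with an SE of 0.07. Without si-Ctrl 2 the log2 fold change was -0.85.

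SLC39A6 (ENSG00000141424, chromosome 18, 36108532 to 36129385, minus strand) and SLC39A10 (ENSG00000196950, chromosome 2, 195575977 to 195737702, plus strand) are close relatives whose proteins form a complex at the cell surface that is known from studies of cell migration and mitosis. SLC39A6 stood at 111, 101 and 105 CPM in si-Ctrl and at 131, 141 and 138 CPM in si-CHAF1A. The knockdown libraries were all above the controls. It rose 1.29-fold, from 106 ± 4.69 to 137 ± 5.16 CPM (a log2 fold change of 0.37 with SE 0.07, and 0.34 without si-Ctrl 2). Its partner SLC39A10 stood at 86.9, 74.7 and 85.4 CPM in si-Ctrl and at 66.5, 71.0 and 70.8 CPM in si-CHAF1A. The groups did not overlap, but the lowest control, si-Ctrl 2, lay only just above the highest knockdown library. SLC39A10 fell 1.19-fold (a log2 fold change of -0.25 with SE 0.07), opposite in sign to SLC39A6. Without si-Ctrl 2 it was at -0.32. It was no longer past the threshold without si-Ctrl 1 (-0.21), si-Ctrl 3 (-0.22), si-CHAF1A 1 (-0.22), si-CHAF1A 2 (-0.26) or si-CHAF1A 3 (-0.26).

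SLC39A4 (ENSG00000147804, chromosome 8, 144409742 to 144416895, minus strand) encodes the importer through which the intestine takes up dietary zinc. Its level was 28.5, 39.5 and 28.5 CPM in si-Ctrl and 24.5, 26.4 and 29.4 CPM in si-CHAF1A. The library si-Ctrl 2 stood well above the other 5, and the groups overlapped. The log2 fold change of -0.27 (SE 0.12) was -0.09 without si-Ctrl 2, and it was past the threshold without si-Ctrl 1 (-0.35), without si-Ctrl 3 (-0.36) and with no filter on low counts (-0.28).

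The deposited counts could not be used for SLC39A7 (ENSG00000112473, chromosome 6, 33200445 to 33204439, plus strand), which encodes the importer that releases zinc from the endoplasmic reticulum. It had 0 counts in each si-Ctrl library and 2, 0 and 0 counts in si-CHAF1A 1, 2 and 3. Most of its neighbours were nearly empty too. Of 37 other coding genes that start within 500 kb, 28 had under 20 counts over all 6 libraries together (75.7%), against 29% of all coding genes. Among them RPS18, a ribosomal protein gene that every cell uses, had 1 to 5 counts per library, and DAXX and RING1 had 8 and 4 counts in all. Further out, BAK1 (372 kb) had 6398, ITPR3 (420 kb) had 55748 and UQCC2 (494 kb) had 2275 counts. SLC39A7 lies in the major histocompatibility complex, and these counts give no level for it. What emptied the region was not tested.

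**Figure D2:**
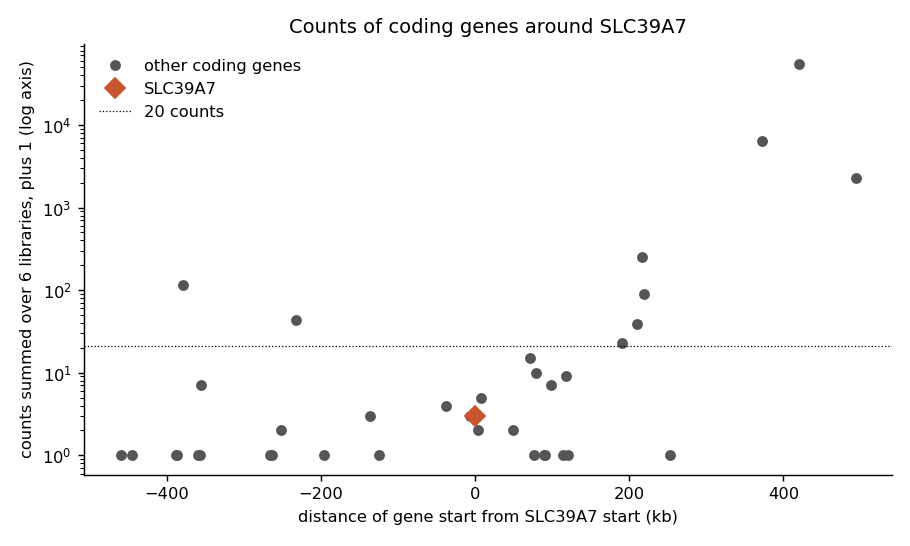
Counts summed over 6 libraries, plus 1 (log y axis), of coding genes against the distance of their start from that of SLC39A7 (x axis, kb). SLC39A7 is the diamond and the dotted line marks 20 counts. Almost all genes near it lie under the line, and BAK1, ITPR3 and UQCC2 on the right lie far above it.

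SLC39A1 (ENSG00000143570, chromosome 1, 153959099 to 153968184, minus strand), a surface importer that most tissues express, had 19, 26 and 42 counts in si-Ctrl and 30, 28 and 39 counts in si-CHAF1A. That is 1.65 ± 0.662 and 1.86 ± 0.297 CPM, and the groups overlapped. The log2 fold change was 0.18 with an SE of 0.31, and over the left-out libraries it ranged from 0.0082 without si-Ctrl 1 (0.020 without si-Ctrl 2) to 0.55 without si-Ctrl 3. In the gene models, 60.8% of its exonic bases (2061 of 3388) also belong to a gene on the same strand, ENSG00000285779, which had 0 counts in all libraries. A further 8.26% are shared with CREB3L4 on the opposite strand. The part of these shared exons in the low count was not tested. For the other 9 genes the same-strand overlap was 0 bases and the opposite-strand overlap at most 9.2% (SLC30A5).

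Among the SLC30 genes, SLC30A1 (ENSG00000170385, chromosome 1, 211571568 to 211578742, minus strand) encodes the main zinc exporter of the cell surface. It stood at 74.3, 61.0 and 82.2 CPM in si-Ctrl and at 106, 106 and 105 CPM in si-CHAF1A. The controls were spread out, with si-Ctrl 2 lowest, while the knockdown libraries were nearly equal and all higher. The coefficient of variation was 14.8% in si-Ctrl and 0.527% in si-CHAF1A. At 1788, 1840 and 1875 counts in si-CHAF1A, so small a spread is under counting error, and nothing is read from it. SLC30A1 rose 1.46-fold, from 72.5 ± 10.7 to 106 ± 0.557 CPM (a log2 fold change of 0.55 with SE 0.09, and 0.43 without si-Ctrl 2).

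SLC30A7 (ENSG00000162695, chromosome 1, 100896076 to 100981753, plus strand) carries zinc into the Golgi apparatus, where it is loaded into secreted and surface enzymes such as alkaline phosphatases. Its level was 27.3, 27.8 and 29.8 CPM in si-Ctrl and 15.2, 15.8 and 16.7 CPM in si-CHAF1A. The knockdown libraries all lay far under the controls. It fell 1.78-fold, from 28.3 ± 1.30 to 15.9 ± 0.754 CPM (a log2 fold change of -0.83 with SE 0.09, and -0.85 without si-Ctrl 2). SLC30A5 (ENSG00000145740, chromosome 5, 69093646 to 69131069, plus strand) serves the same Golgi enzymes as a pair with SLC30A6. It stood at 43.0, 38.5 and 42.7 CPM in si-Ctrl and at 46.1, 41.3 and 40.8 CPM in si-CHAF1A, and the groups overlapped (a log2 fold change of 0.05 with SE 0.08, and -0.00998 without si-Ctrl 2). SLC30A9 (ENSG00000014824, chromosome 4, 41990472 to 42090457, plus strand), which exports zinc from mitochondria, also overlapped between the groups, at 112, 101 and 109 CPM in si-Ctrl and 113, 108 and 110.1 CPM in si-CHAF1A (a log2 fold change of 0.04 with SE 0.07, and -0.00889 without si-Ctrl 2).

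The promoters of all zinc transporters with a window, past the threshold or not, were searched for the core of the metal response element. It is written here as TGCACNC and TGCGCNC and was sought on both strands. Each window ran from 250 bases before to 50 bases after a RefSeq start. These 7-base cores do not overlap each other in the genes shown. Over all 35116 windows of this length 29.6% held a core and 8.6% held at least 2. Windows were found for 8 of the 10 zinc transporters (all but SLC39A4 and SLC39A14). Of their 10 windows 4 held a core, those of SLC30A1 and SLC39A6 and 1 of 2 windows each of SLC39A1 and SLC39A10. SLC30A1 held 2, at -49 to -43 and at 25 to 31 counted from the start, both on the reverse strand. SLC39A6 held 1 (-17 to -11), and SLC30A7, SLC30A5, SLC30A9 and SLC39A7 held none. The metallothionein gene MT2A, a classic MTF1 target, held 8. RefSeq starts can differ from the ends of the gene models given above. The SLC30A1 window (211579112 to 211579411) lay wholly outside its model, which ends at 211578742. The SLC39A10 windows (from 195656708) lay inside its model, which starts at 195575977. The windows of SLC39A7 (from 33200617) and SLC30A5 (from 69093764) also lay inside their models, which start at 33200445 and 69093646. The SLC39A1 window that holds its core (153963488 to 153963787) lay inside its model, which on the minus strand starts at 153968184. The SLC39A1 window at that start held none. The bases just upstream of the SLC30A1, SLC39A10, SLC39A7 and SLC30A5 models were not searched. The 250 bases upstream of the start are printed for the exporter that rose, the importer that rose, the transporter with the largest fall and MT2A, which fell, to set their cores side by side. They read 5′ to 3′ on the gene's own strand (RefSeq, GRCh38.p14), with cores in capitals, and a core on the reverse strand appears as its complement (GAGTGCA for TGCACTC).
SLC30A1, chr1:211579162-211579411, minus strand: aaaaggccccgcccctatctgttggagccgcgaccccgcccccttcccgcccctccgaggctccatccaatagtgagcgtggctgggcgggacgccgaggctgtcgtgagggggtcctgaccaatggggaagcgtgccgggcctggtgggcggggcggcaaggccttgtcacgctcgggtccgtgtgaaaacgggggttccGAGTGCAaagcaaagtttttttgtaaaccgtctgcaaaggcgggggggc
SLC39A6, chr18:36129341-36129590, minus strand: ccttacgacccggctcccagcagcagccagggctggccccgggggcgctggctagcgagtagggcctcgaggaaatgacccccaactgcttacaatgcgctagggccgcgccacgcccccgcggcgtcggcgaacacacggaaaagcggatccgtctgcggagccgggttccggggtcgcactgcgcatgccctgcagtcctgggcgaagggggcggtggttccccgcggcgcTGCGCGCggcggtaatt
SLC30A7, chr1:100895840-100896089, plus strand: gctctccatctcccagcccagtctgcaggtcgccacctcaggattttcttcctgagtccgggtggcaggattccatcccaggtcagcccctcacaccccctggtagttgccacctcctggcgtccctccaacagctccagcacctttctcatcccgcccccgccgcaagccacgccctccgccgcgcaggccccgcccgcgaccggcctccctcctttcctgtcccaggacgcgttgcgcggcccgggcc
MT2A, chr16:56608334-56608583, plus strand: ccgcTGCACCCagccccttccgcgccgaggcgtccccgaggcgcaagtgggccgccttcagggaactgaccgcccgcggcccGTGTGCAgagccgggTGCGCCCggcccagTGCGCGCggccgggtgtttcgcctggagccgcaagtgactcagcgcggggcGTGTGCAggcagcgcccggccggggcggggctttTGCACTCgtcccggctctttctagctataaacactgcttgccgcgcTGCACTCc
Within the printed bases SLC30A1 holds 1 core and MT2A holds 7. A match is a match of letters and is not evidence of a bound site.

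Levels of different genes can be compared only per length, so CPM was divided by the exonic length in kilobases (kb). In si-Ctrl the order was SLC39A6 (28.7 ± 1.27 CPM per kb), SLC39A14 (21.3 ± 1.02), SLC30A9 (14.8 ± 0.778), SLC30A1 (13.2 ± 1.96), SLC39A10 (11.9 ± 0.96), SLC30A5 (7.16 ± 0.441), SLC39A4 (6.39 ± 1.26), SLC30A7 (3.38 ± 0.155) and SLC39A1 (0.486 ± 0.195). The ranges over 3 libraries overlapped between SLC30A9 and SLC30A1, between SLC30A1 and SLC39A10, and between SLC30A5 and SLC39A4. In si-CHAF1A no neighbours overlapped. SLC30A1 was the second there at 19.3 ± 0.102 CPM per kb, and SLC39A14 was the fourth at 12.2 ± 0.194 CPM per kb. Summed per kb, the 6 SLC39 genes were at 66.7 to 70.8 in si-Ctrl and 62.6 to 66.7 in si-CHAF1A, and the 4 SLC30 genes at 35.1 to 41.0 and 43.2 to 44.8. In the SLC39 sum, to which SLC39A7 adds almost nothing, the groups nearly met, at 66.74 in si-Ctrl 2 and 66.72 in si-CHAF1A 2. In the SLC30 sum the groups lay farther apart. Of its genes SLC30A1 rose (13.2 to 19.3 CPM per kb) and SLC30A7 fell (3.38 to 1.89 CPM per kb).

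**Figure D3:**
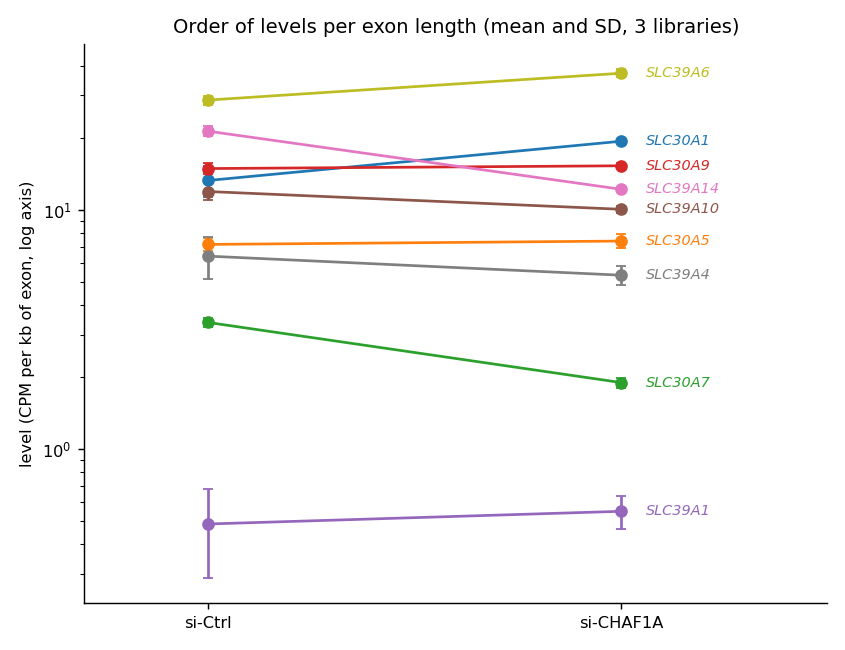
Level per kb of exon (log y axis) of 9 zinc transporters in si-Ctrl and si-CHAF1A, as the mean with SD of 3 libraries, 1 coloured line per gene. The lines of SLC30A1 (13.2 to 19.3) and SLC39A14 (21.3 to 12.2) cross.

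The other 14 SLC39 and SLC30 genes mostly did not pass the test or had too few counts. Of the 8 that passed the filter, 1 was lower and 1 higher by edgeR's quasi-likelihood test. Among all tested genes 19.3% were lower and 18.5% higher. The median log2 fold change of the 8 was 0.14 against 0.00 for all tested genes. SLC39A8, the closest relative of SLC39A14 and like it an importer of zinc, manganese and iron, stood at 17.5, 15.3 and 18.5 CPM in si-Ctrl and at 11.4, 10.8 and 10.5 CPM in si-CHAF1A. All knockdown libraries lay under all controls. It fell 1.57-fold (a log2 fold change of -0.65 with SE 0.11, edgeR adjusted p = 0.000243, and -0.73 without si-Ctrl 2). SLC30A3, which fills synaptic vesicles in neurons, was low and rose 1.39-fold, from 4.07 ± 0.611 to 5.67 ± 0.465 CPM (a log2 fold change of 0.47 with SE 0.17, edgeR adjusted p = 0.0394). It was not past the threshold in DESeq2 (adjusted p = 0.0751), with no filter on low counts (0.076 by edgeR), or without any 1 library other than si-Ctrl 2 (edgeR adjusted p from 0.0634 to 0.168).

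SLC30A6, the Golgi partner of SLC30A5, was at 52.3 ± 3.35 and 57.5 ± 2.72 CPM (log2 fold change 0.14, edgeR adjusted p = 0.17). SLC39A9, SLC39A13 and SLC39A11 were at 0.10, 0.14 and 0.20 on the log2 scale. The last 2 were past the threshold without si-Ctrl 2 (SLC39A13 at 0.21, edgeR adjusted p = 0.015, and SLC39A11 at 0.22, edgeR adjusted p = 0.0458). SLC39A3, a surface importer, and SLC30A4, found in endosomes, were at 0.08 and 0.23 and not past it. SLC39A2, SLC39A5, SLC39A12, SLC30A2, SLC30A8 and SLC30A10 had at most 24 counts over all 6 libraries and were not tested.

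**Figure D4:**
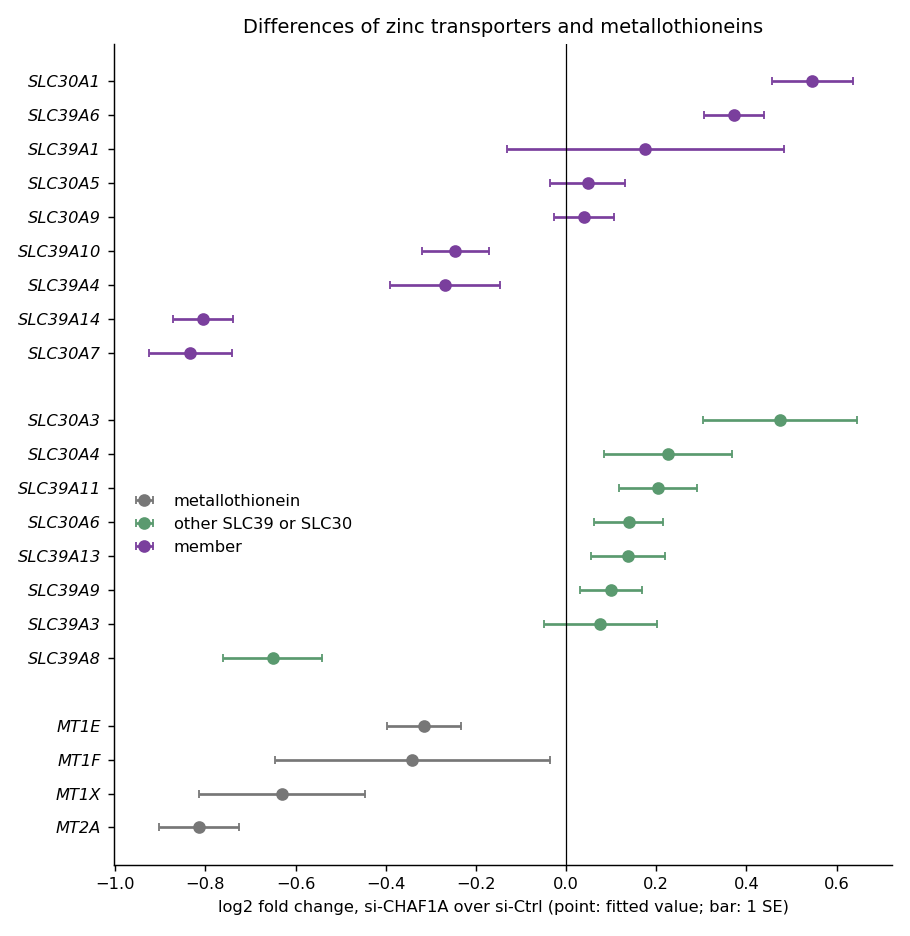
Fitted log2 fold change of si-CHAF1A over si-Ctrl (x axis) for 9 of the described zinc transporters, 8 other SLC39 and SLC30 genes and 4 metallothioneins that passed the filter, with bars of 1 SE. SLC30A7 (-0.83) and SLC39A14 (-0.81) lie at the left with MT2A (-0.81) and SLC39A8 (-0.65), and SLC30A1 (0.55) lies farthest to the right.

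Of the metallothioneins, which like SLC30A1 are switched on by zinc through MTF1, MT2A, MT1E and MT1X fell while SLC30A1 rose. Of 11 listed genes 4 passed the filter, and 3 were lower and 0 higher by edgeR's adjusted p, with a median log2 fold change of -0.49. Among all tested genes 19.3% were lower and 18.5% higher, and the lists that follow are set beside these same shares. MT2A, the most abundant, stood at 104, 133 and 114 CPM in si-Ctrl and at 62.9, 64.7 and 72.1 CPM in si-CHAF1A. It fell 1.76-fold (a log2 fold change of -0.81 with SE 0.09, edgeR adjusted p = 3.66e-06, and -0.71 without si-Ctrl 2, its highest library). MT1E fell 1.24-fold, from 64.2 ± 5.79 to 51.7 ± 3.61 CPM (edgeR adjusted p = 0.00702), and MT1X fell 1.55-fold, from 4.98 ± 0.555 to 3.21 ± 0.365 CPM (edgeR adjusted p = 0.0132). MT1F was at -0.34 (edgeR adjusted p = 0.413). Without si-CHAF1A 3 only MT2A was lower, with MT1E at an edgeR adjusted p of 0.0503 and MT1X at 0.057, and without si-Ctrl 1 MT1X was at 0.0533. Metallothionein genes are near-identical copies, so reads can be split between them.

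MTF1 itself stood at 27.1, 28.0 and 26.9 CPM in si-Ctrl and 35.0, 31.4 and 29.2 CPM in si-CHAF1A. The groups did not overlap, and the difference was not past the threshold (a log2 fold change of 0.22 with SE 0.09, edgeR adjusted p = 0.0671, and 0.0257 without si-Ctrl 2). In the list of zinc sensing and delivery to which it belongs, 1 of 10 tested genes was higher and 2 were lower, and 2 and 5 without si-Ctrl 2. With all 6 libraries 18.5% of all tested genes were higher and 19.3% lower. METAP1, an aminopeptidase that receives its zinc from the chaperone ZNG1, fell 1.28-fold (edgeR adjusted p = 0.000666). ZNG1A, a gene for that chaperone, fell 1.45-fold, from 19.7 ± 2.87 to 13.5 ± 1.20 CPM (edgeR adjusted p = 0.00235). ZNG1A has near-identical copies, and its count is uncertain. TMEM163, a zinc carrier of vesicles, rose 1.66-fold, from 4.60 ± 1.00 to 7.69 ± 0.464 CPM (edgeR adjusted p = 0.00275).

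**Figure D5:**
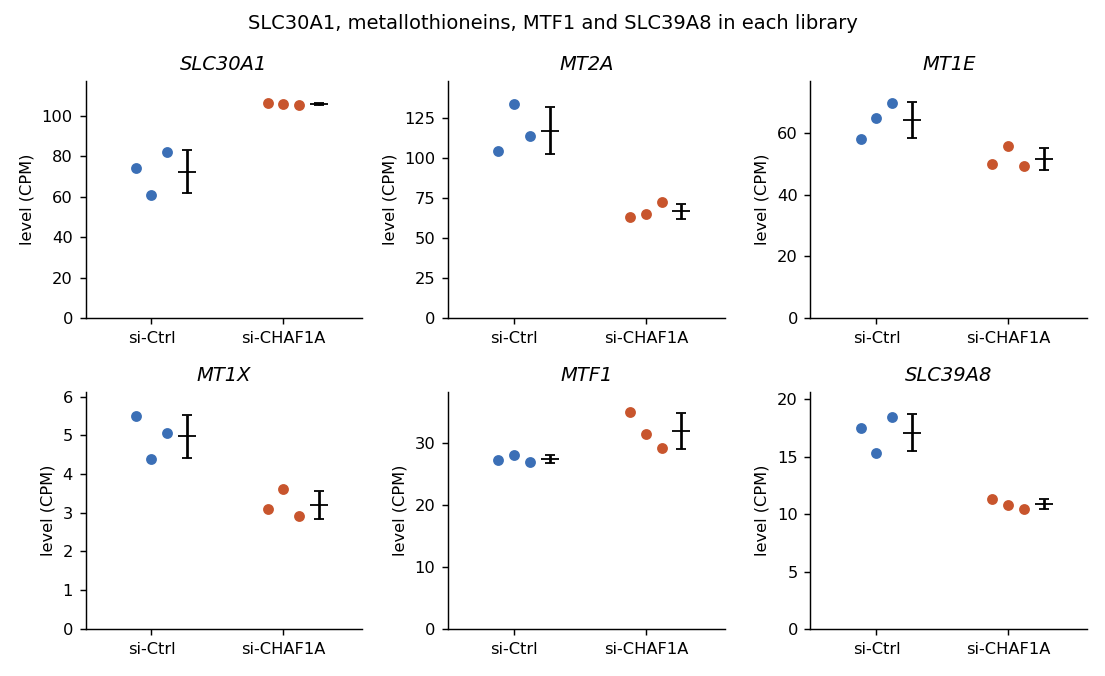
Level in CPM (y axis, from 0) of SLC30A1, 3 metallothioneins, MTF1 and SLC39A8 in each library, si-Ctrl in blue and si-CHAF1A in orange, with mean and SD of 3 libraries in black. SLC30A1 is higher and MT2A, MT1E, MT1X and SLC39A8 are lower in every knockdown library.

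Of 14 tested genes known as regulators or partners of zinc transporters, 4 were higher, 4 were lower and 6 did not pass the test, with a median of -0.01. Of all tested genes 18.5% were higher and 19.3% lower. Past the threshold were 57.1% of the 14 and 37.8% of all tested genes. The list was chosen with earlier results of these data known, so nothing is read from that difference. STMN1, a microtubule regulator that the complex of SLC39A6 and SLC39A10 is reported to bind, fell 2.47-fold, from 80.7 ± 1.22 to 32.7 ± 0.644 CPM (edgeR adjusted p = 1.49e-09). STAT3, which passes on the interleukin-6 signal that raises SLC39A14 in hepatocytes, rose 1.45-fold, from 195 ± 8.64 to 282 ± 9.72 CPM (edgeR adjusted p = 8.03e-06). The interleukin-6 receptor gene IL6R rose 1.33-fold (edgeR adjusted p = 0.000373). The listed genes of this signal did not all go 1 way. JAK1 rose 1.26-fold, while JAK2 and SOCS3 fell 1.35-fold and 1.45-fold. IL6ST was not past the threshold, and IL6 had 1 and 6 counts and was not tested. JAK1, JAK2, SOCS3, IL6ST and IL6 were named after their values were seen, so they are given without p-values. KLF4, a transcription factor linked to SLC39A4 in the intestine, fell 1.56-fold, from 37.0 ± 3.68 to 23.8 ± 0.732 CPM (edgeR adjusted p = 5.43e-05).

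Iron and manganese genes, which share SLC39A14 and SLC39A8 with zinc, mostly did not pass the test, with 1 higher and 1 lower of 16 tested and a median of 0.02. The counts were 4 higher and 4 lower without si-Ctrl 2, 2 and 1 without si-Ctrl 1, 0 and 2 without si-Ctrl 3, and 0 and 1 without si-CHAF1A 2 or si-CHAF1A 3. IREB2, an iron sensor that controls messenger RNAs, fell 1.41-fold (edgeR adjusted p = 0.000139). NCOA4, which brings ferritin to lysosomes, rose 1.16-fold (edgeR adjusted p = 0.0135) and was not past the threshold without si-Ctrl 3 (0.0547), si-CHAF1A 2 (0.0525) or si-CHAF1A 3 (0.0696). The mitochondrial iron importers SLC25A37 and SLC25A28 were at 0.17 and -0.29 on the log2 scale (edgeR adjusted p = 0.0517 and 0.0545). Both were past the threshold without si-Ctrl 2 (0.0136 and 0.0499). SLC25A37 was also past it with RLE factors (0.0482), and SLC25A28 with no filter on low counts (0.0349) and without si-Ctrl 3 (0.0104).

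Of 9 tested copper genes 5 were lower and 0 higher (1 higher without si-Ctrl 2), with a median of -0.26, beside 19.3% lower and 18.5% higher among all tested genes. The copper importer SLC31A1 fell 1.20-fold, from 171 ± 3.02 to 143 ± 1.25 CPM (edgeR adjusted p = 0.00332). SCO1 and COX17, which deliver copper to cytochrome oxidase, fell 1.29-fold and 1.40-fold, and the copper chaperone ATOX1 fell 1.24-fold (edgeR adjusted p = 0.000658, 0.00141 and 0.00807).

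Of 15 tested enzymes listed as users of zinc in the secretory pathway, 4 were higher and 4 lower (2 lower without si-CHAF1A 2), with a median of -0.07, beside 18.5% higher and 19.3% lower among all tested genes. Carbonic anhydrase CA12 rose 2.56-fold, from 10.7 ± 0.358 to 27.3 ± 1.88 CPM (edgeR adjusted p = 4.8e-08). The matrix protease MMP14 rose 1.69-fold (edgeR adjusted p = 3.24e-06). LOXL2, 1 of the 4 lower, is in fact a copper enzyme and fell 1.38-fold (edgeR adjusted p = 0.000148). ALPP, an alkaline phosphatase of the kind that SLC30A7 supplies with zinc, went from 1 count in all si-Ctrl libraries to 45 in si-CHAF1A. It is among the 4 higher, but it passed the filter on low counts only through the si-CHAF1A libraries, so its p-value is left out. The ratio of pooled counts was 45.7 with a 95% counting interval of 7.79 to 1844, and the fold fitted by edgeR was 33.4. The listed alkaline phosphatase ALPG had 1 and 15 counts and was not tested.

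The coding genes whose 6 values, on a log2 scale centred on the control mean, lay nearest to those of SLC30A1 were CILK1, NR1D2 and ITGAV, at Euclidean distances of 0.0634, 0.0778 and 0.0957 among 12874 genes. Nearest to SLC30A7 were CALD1, DDX46 and UBE2S, at 0.121, 0.126 and 0.128. They were chosen over all 6 libraries, so their likeness in fold change and in the order of the libraries follows from the choice.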

How the data were processed

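The authors deposited 1 table of gene-level read counts, whole numbers with no normalisation, for 6 libraries with reads of 150 bp. The submitters' processing notes name fastp 0.20.1, HISAT2 2.1.0, SAMtools 1.9, featureCounts 2.0.1, StringTie 2.1.4 and the build hg38, without roles. The series' design text names strand-specific libraries. Not given in the sources used here are the strand setting of the counting, the annotation release and the handling of reads with several places. Columns named NC and si were read as si-Ctrl and si-CHAF1A and matched by number. No column of other samples was present (0), and no row lacked a gene identifier (0). The 3 samples of a group are called biological replicates, with no more said, so what p-values reflect is sample-to-sample spread, which may be technical. No pair within a group was a duplicate (chi-square per degree of freedom 2.30 to 13.7). Symbols came from a gene name table (62665 of 63186 rows) and positions and exon lengths from GENCODE 29 (58173 rows, GRCh38).

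Counts were filtered (edgeR filterByExpr, minimum count 10, minimum total 15, leaving 15911 genes) and tested with the robust quasi-likelihood test of edgeR 4.0.16 in R 4.3.3, with TMM factors, no covariate and Benjamini-Hochberg adjustment over all tested genes at 0.05. The procedure was tested on simulated data. SE is the log2 fold change divided by the square root of F. Intervals cover counting error only. The genes and lists were chosen with earlier results of these data known. Named genes are the 10 zinc transporters, the other SLC39 and SLC30 genes, up to 4 genes of lowest adjusted p per list, and the 3 coding genes nearest to the largest rise and fall (log2 CPM, prior count 2). RPS18, DAXX, RING1, BAK1, ITPR3, UQCC2, ALPG, IL6, IL6ST, JAK1, JAK2, SOCS3, COL1A2, PDGFRB and VWF were named after their values were seen. DESeq2 1.42.0, RLE factors, no filter, a replicate block and leaving out each library were alternatives.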

Additional observations from a re-analysis of the deposited data

How the results depend on the processing

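SLC39A14, SLC39A6, SLC30A1 and SLC30A7 kept their direction and stayed past the threshold under all 10 alternatives, with log2 fold changes of -0.85 to -0.78, 0.34 to 0.40, 0.43 to 0.64 and -0.87 to -0.80. SLC39A10 kept its direction (-0.32 to -0.21) and lost the call in 5. SLC30A5, not past the threshold in any fit, ranged over the left-out libraries from -0.0107 (without si-CHAF1A 1, and -0.00998 without si-Ctrl 2) to 0.0795, SLC30A9 from -0.00889 (without si-Ctrl 2) to 0.0665, and SLC39A3 from -0.00529 (without si-CHAF1A 1, and -0.000784 without si-Ctrl 1) to 0.222. Other SLC39 and SLC30 genes past the test came to 1 with DESeq2, 1 with no count filter, and 1 to 4 over the left-out libraries (4 without si-Ctrl 2), against 2. Replicate numbers did not pair the samples (correlations of deviations between same-numbered samples of -0.086, -0.064 and -0.0031, in no case the highest), and with the replicate block 2675 genes were higher and 2723 lower, against 2944 and 3064, with 2 and 3 of the zinc transporters. Depth limits SLC39A1 (87 and 97 counts per group).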
